A study of Mus musculus with 16 samples.

Results

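Toll-like receptors are membrane proteins by which macrophages recognise molecules of microbes. The genes described here are the 9 mouse receptor genes Tlr1 to Tlr8 and Tlr13, and Cd14, whose product hands lipopolysaccharide to the Tlr4 complex. They were chosen by name, as probe sets that the array's annotation gives to exactly 1 of these 10 symbols. Of the 10 genes, 9 had such probe sets, 46 in all, among 20848 genes on the array. Tlr5, the receptor for flagellin, had no probe set under its own symbol in the annotation used and is not analysed here.

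The arrays measured RNA of primary resident macrophages of the peritoneal cavity, phagocytes that stay in that tissue without inflammation, from C57BL/6 mice that were either wild type (+/+, called WT) or lacked Ogr1 on both alleles (-/-, called KO). Ogr1 is a proton-sensing receptor on the cell surface, and the deletion is carried by the whole animal as far as the labels say. Cells of both genotypes were cultured for 24 h in RPMI medium with serum at pH 7.7 or pH 6.7, which gave 4 groups of 4 arrays. The treatment text gives 7.6 and 6.8 for the same conditions. The sources used here give no age, sex or number of animals. Whether replicate arrays stand for different animals is not said there either, and the p-values then measure only a spread between samples that could be technical. The transcript of the deleted gene is not analysed here, so the genotype labels were not checked against it.

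Each value averages all probe sets of its gene on the log2 scale of the normalized intensity that the authors deposited. The median of all probe sets lay between 3.03 and 3.11 on the 16 arrays, and levels are set only against it, because no detection call was used. One array, WT pH 7.7 replicate 2, stood apart, with a median correlation with the other arrays of 0.883 against at least 0.907 for the other 15. Macrophage markers were all above the array median on every array (6 of 6 genes, Adgre1, Csf1r, Cd68, Lyz2, Mertk and Itgam). The 7 markers of T and NK cells were below it on every array, as were 5 of 6 neutrophil, 4 of 4 eosinophil and 4 of 6 dendritic cell markers. Of 6 B cell and 7 mast cell markers, only 1 each was below it on every array. The B cell genes Ighm, Cd79b and Cd79a were above it on 16, 15 and 10 arrays. The mast cell genes Cpa3 and Tpsb2 were above it on 12 and 9.

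The family divides by the place and kind of recognition. Tlr1, Tlr2, Tlr4 and Tlr6 act at the cell surface, where Tlr2 pairs with Tlr1 or Tlr6 to bind bacterial lipopeptides and Tlr4 binds lipopolysaccharide. Tlr3, Tlr7, Tlr8 and Tlr13 sit in endosomes and recognise nucleic acids. Endosomes are acidified compartments, and signalling by the nucleic acid receptors is known to need that acid. Ligand binding sets off kinase cascades that end in NF-kB, AP-1 and interferon regulatory factors.

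Acidic medium went with a lower Tlr2 level in WT cells, and Tlr2 was the only one of the 9 measured genes to pass the test (adjusted p under 0.05) in any comparison. In WT, 3.21% of all genes passed it, and 1.03% passed it with a lower level. In WT at pH 7.7, Tlr2 measured 6.41, 7.20, 6.81 and 6.66 on the log2 scale in replicates 1 to 4. At pH 6.7 it measured 6.46, 5.73, 5.46 and 5.88. The 2 groups overlapped by 1 array, replicate 1 at pH 6.7, which lay just above the lowest array at pH 7.7. The log2 fold change was −0.88 ± 0.18 (SE, n = 4 arrays per group, adjusted p = 0.0115 by limma over all genes), a level 1.84-fold lower. Its 95% interval ran from −1.27 to −0.50.

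In KO cells the Tlr2 values lay closer together. They were 6.55, 6.40, 6.19 and 6.35 at pH 7.7 and 5.88, 6.27, 6.11 and 6.10 at pH 6.7. The KO arrays at pH 7.7 lay within or below the WT range at that pH, and those at pH 6.7 lay inside the WT range at pH 6.7. The log2 difference in KO was −0.28 ± 0.18 (95% interval −0.66 to 0.10, adjusted p = 0.41 by limma). Averaged over both genotypes, Tlr2 fell by 0.58 on the log2 scale (SE 0.13, adjusted p = 0.00807 by limma), a call that was lost with the brightest probe set (adjusted p = 0.139) and with the median over probe sets (adjusted p = 0.112). The change in KO minus that in WT was 0.60 ± 0.26 with an unadjusted p of 0.0311 and an adjusted p of 0.388 by limma, so a difference between genotypes in this response was not called.

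The fall of Tlr2 in WT kept its direction but not its call under 3 other ways of computing it. The adjusted p by limma was 0.466 for the brightest probe set alone (−0.57), 0.104 for the median over probe sets (−0.87), and 0.0708 when only the 8 WT arrays were fitted (−0.88). Without WT pH 7.7 replicate 2, the array that stood apart and that holds the highest Tlr2 value, the log2 fold change was −0.74 with an adjusted p of 0.0412.

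**Figure D1:**
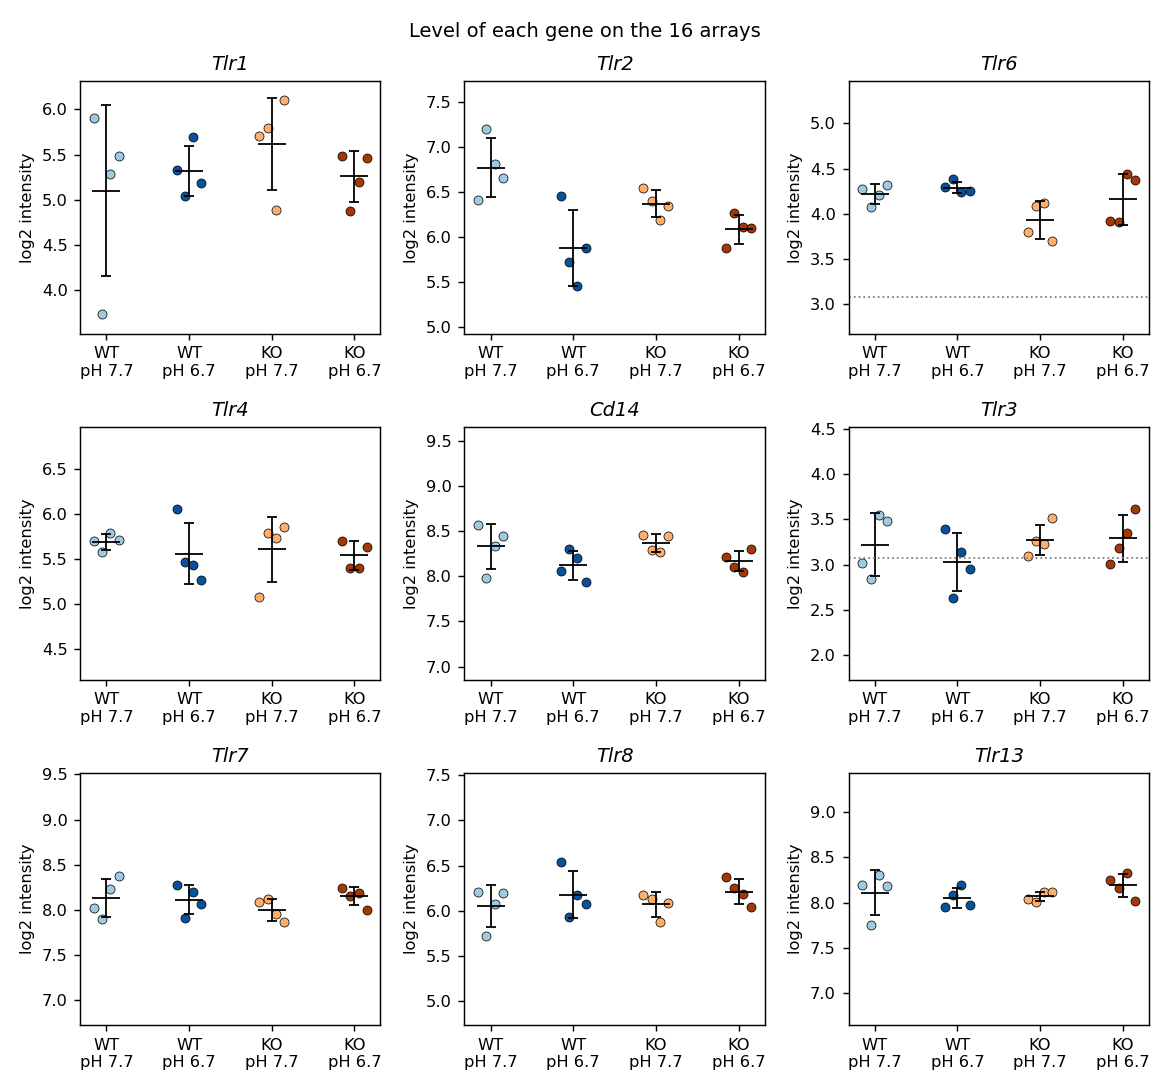
Log2 intensity (y axis) of the 9 genes in the 4 groups (x axis). Points are arrays in the order of replicates 1 to 4, bars are the mean ± SD of 4 arrays, every panel spans 2.8 log2 units, and the dotted line is the mean of the array medians where it falls in range. Tlr2 is lowest in WT at pH 6.7 (mean 5.88) and highest in WT at pH 7.7 (mean 6.77), and in none of the 9 genes do the pH groups of a genotype separate fully.

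Because Tlr2 alone passed, the RefSeq window for its start is shown, with letters that match short motifs of known regulators of macrophage genes in capitals. It holds the 250 bases before the start that the table uses, on the minus strand at chr3:83841609-83841858 (GRCm38.p6). That start is not the outermost one: 216 of these bases lie inside the span that the same RefSeq build annotates as the Tlr2 gene, and 34 lie ahead of it.
Tlr2: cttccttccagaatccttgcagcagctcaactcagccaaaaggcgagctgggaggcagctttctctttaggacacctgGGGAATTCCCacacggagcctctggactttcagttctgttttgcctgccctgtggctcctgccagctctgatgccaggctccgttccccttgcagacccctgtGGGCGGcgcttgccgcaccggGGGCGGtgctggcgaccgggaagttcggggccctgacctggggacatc
The first capitals match the NF-kB motif GGGNNTTCC, which was found on both strands in overlapping positions starting 172 and 171 bases before the start of this table. The other capitals match the Sp1 motif GGGCGG at 69 and 48 bases before it. All 4 matches lie inside the annotated span of the gene, so they are not ahead of every Tlr2 transcript. The PU.1 motif GAGGAAG was searched too and these letters are not in the window. On either strand, the NF-kB letters occur in 4.98% of 32851 RefSeq windows of this length, the Sp1 letters in 32.7% and the PU.1 letters in 10.6%. Windows were at hand for 7 of the 10 genes, and of these Tlr2 alone held the NF-kB letters, Tlr2 and Tlr5 the Sp1 letters, and Tlr1 and Tlr13 the PU.1 letters. The match is one of letters, and binding was not measured.

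The 5 probe sets of Tlr2 were all lower at pH 6.7 in WT, by 0.57 to 1.07 as differences of log2 means (−0.57 to −1.07), and in KO 3 of 5 were lower. The brightest probe set went from 7.90 ± 0.41 to 7.33 ± 0.59 in WT and from 8.03 ± 0.43 to 7.41 ± 0.09 in KO (SD, n = 4 arrays), differences of −0.57 and −0.62. The second brightest went from 7.63 ± 0.32 to 6.56 ± 0.52 in WT and from 7.04 ± 0.37 to 7.25 ± 0.28 in KO, differences of −1.07 and 0.21. The probe sets thus part in KO, and the dimmest, with a mean of 3.78, came close to the array median and had an SD of 1.08 in KO at pH 6.7. Probe sets of this array cover parts of a gene, and which part each covers was not examined.

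**Figure D2:**
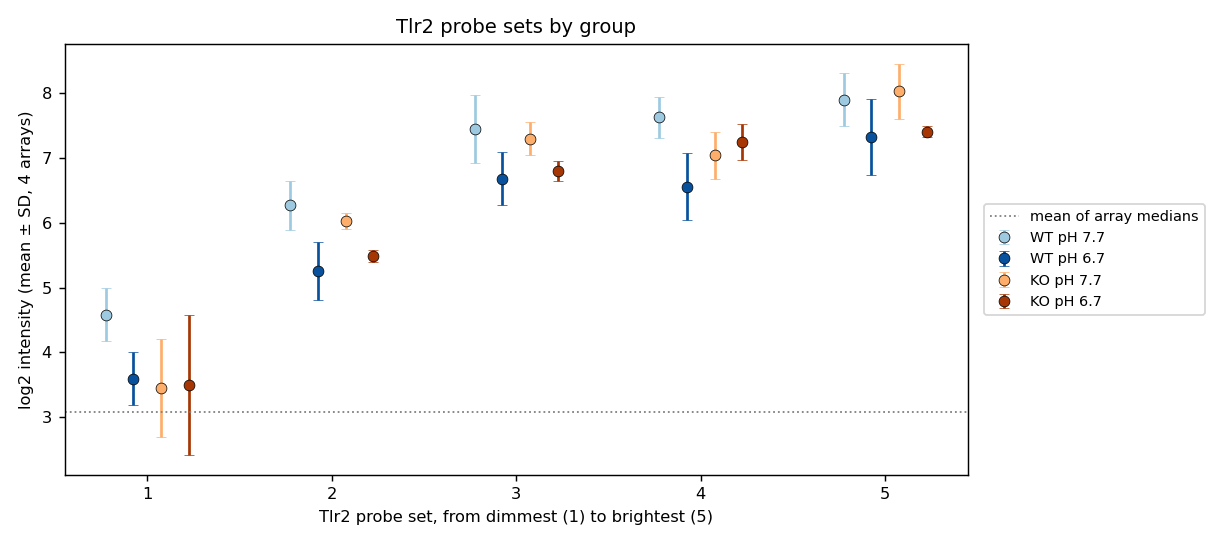
Log2 intensity (y axis, mean ± SD of 4 arrays) of the 5 probe sets of Tlr2 (x axis, from the dimmest to the brightest) in the 4 groups. In WT all 5 lie lower at pH 6.7 than at pH 7.7, and in KO the fourth is higher at pH 6.7 (7.25 against 7.04) and the first differs by 0.04.

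Some cell type markers moved in the WT pH comparison, and their part in the Tlr2 result was not tested. Neutrophils also carry Tlr2, and of their 6 markers S100a8 alone was above the array median, at a mean of 7.02 on the log2 scale. The mean log2 level of the 6 genes ranged from 2.59 to 2.96 in WT at pH 7.7 and from 2.42 to 2.61 at pH 6.7, with 0 of 6 past the test. The other 5, S100a9, Ly6g, Mpo, Elane and Cxcr2, were below the array median on all 16 arrays, and Cxcr2 had the largest difference of the list in WT (−0.67, adjusted p = 0.13 by limma). For the 7 mast cell genes the mean level ranged from 1.99 to 2.79 in WT at pH 7.7 and from 2.21 to 4.31 at pH 6.7, and 0 of 7 passed. For the 6 B cell genes measured it ranged from 2.76 to 3.21 and from 2.84 to 4.16, and Cd79b passed. The mean log2 difference in WT was 0.65 for the mast cell genes and 0.49 for the B cell genes. In KO these means were −0.45 and −0.22, with 6 of 7 and 6 of 6 genes lower and 0 past the test. The 6 markers of large peritoneal macrophages had ranges of 4.39 to 4.59 and 4.58 to 5.22 in WT at pH 7.7 and pH 6.7. Of these 1 rose, Selp (log2 fold change 2.55), and the rest did not pass. Gata6 (0.23), Timd4 (0.47) and Alox15 (0.05) were higher at pH 6.7, and Icam2 (−0.16) and Garnl3 (−0.08) were lower. Those of small peritoneal macrophages and monocytes had ranges of 3.09 to 3.83 and 3.73 to 4.48, with 1 that rose, Cd209a (1.11). For the general macrophage genes the ranges were 8.59 to 8.92 and 8.83 to 9.10, with 1 that rose, Mertk, and 3 of 6 lower without passing. On the remaining lists no gene passed in WT. Their mean log2 differences in WT were −0.04 for T and NK cells, 0.03 for eosinophils, 0.11 for dendritic cells and 0.03 for mesothelial cells and fibroblasts. In KO the dendritic cell gene Clec9a rose (0.98), and Cd3e (−0.37) and Col1a1 (−0.38) fell. Averaged over genotypes Clec9a had 0.85 and also passed. In such bulk samples, fewer cells of a type and less RNA per cell cannot be told apart.

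Neither partner of Tlr2 changed detectably with pH. Tlr1 measured 5.90, 3.73, 5.29 and 5.48 in WT at pH 7.7 and 5.33, 5.04, 5.70 and 5.19 at pH 6.7. The low value of 3.73 is again WT pH 7.7 replicate 2, the array that stood apart. In KO, Tlr1 measured 5.71, 5.79, 4.89 and 6.10 at pH 7.7 and 5.49, 4.88, 5.20 and 5.46 at pH 6.7. The log2 difference was 0.22 ± 0.34 in WT and −0.37 ± 0.34 in KO, with 95% intervals of −0.50 to 0.93 and −1.08 to 0.35. Tlr1 thus has the widest intervals of the 9 genes, and a change as large as that of Tlr2 lies inside the KO interval. All 5 Tlr1 probe sets were higher at pH 6.7 in WT and lower in KO, and the interaction of −0.58 ± 0.48 did not pass (adjusted p = 0.682 by limma). Without that 1 array the Tlr1 difference in WT turned to −0.24 and the interaction came to −0.13, so the sign in WT rested on it.

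Tlr6 measured 4.27, 4.07, 4.21 and 4.32 in WT at pH 7.7 and 4.30, 4.38, 4.24 and 4.25 at pH 6.7. In KO it measured 3.80, 4.09, 4.12 and 3.70 at pH 7.7 and 3.92, 3.91, 4.44 and 4.37 at pH 6.7. Its pH difference was 0.08 ± 0.13 in WT (95% interval −0.20 to 0.35) and 0.23 ± 0.13 in KO (−0.04 to 0.50). Of the 4 Tlr6 probe sets 2 were above the array median on every array. At pH 6.7, 2 of 4 were lower in WT and 1 of 4 in KO. The brightest was lower in both, by log2 differences of −0.17 and −0.21, against the sign of the gene mean. Tlr1 and Tlr6 are neighbouring genes with similar sequences, and how far their probes tell them apart was not examined. Tlr1 and Tlr6 shared no probe set.

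Tlr4 and Cd14, which serve lipopolysaccharide recognition together, showed small differences. Tlr4 ranged from 5.58 to 5.79 in WT at pH 7.7 and from 5.27 to 6.05 at pH 6.7. In KO its range was 5.08 to 5.85 and 5.40 to 5.70. The differences were −0.14 ± 0.17 and −0.08 ± 0.17, and the groups overlapped in both genotypes. Of its 8 probe sets, 6 were lower at pH 6.7 in WT and 6 in KO.

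Cd14 measured 8.57, 7.98, 8.34 and 8.45 in WT at pH 7.7 and 8.06, 8.30, 8.20 and 7.94 at pH 6.7. In KO it measured 8.46, 8.29, 8.27 and 8.45 at pH 7.7 and 8.21, 8.10, 8.05 and 8.30 at pH 6.7. The log2 difference was −0.21 ± 0.12 in WT and −0.20 ± 0.12 in KO, and all 3 probe sets were lower at pH 6.7 in both genotypes. Averaged over both genotypes it was −0.21 ± 0.08 with an unadjusted p of 0.0264 and an adjusted p of 0.164 by limma. Without WT pH 7.7 replicate 2, whose Cd14 value is the lowest of its group, the averaged difference was −0.26 with an adjusted p of 0.0365. This was the only left-out array of 16 with which the averaged difference of Cd14 passed.

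Among the nucleic acid receptors, Tlr3, which binds double-stranded RNA, was near the median of the arrays and above it on 11 of 16. It ranged from 2.84 to 3.55 and from 2.63 to 3.39 in WT, and from 3.09 to 3.51 and from 3.01 to 3.62 in KO, at pH 7.7 and pH 6.7 in turn. Of its 10 probe sets 3 were above the median on every array. At such levels a fold change describes the deposited values and not how far the transcript changed. The differences were −0.20 ± 0.18 in WT and 0.02 ± 0.18 in KO.

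Tlr7, a receptor for single-stranded RNA, was above the median with all 6 probe sets on every array. Its level ranged from 7.90 to 8.38 at pH 7.7 and from 7.91 to 8.28 at pH 6.7 in WT, and averaged 8.15 ± 0.10 at pH 6.7 in KO (SD, n = 4 arrays), where it ranged from 7.86 to 8.12 at pH 7.7. The difference of −0.02 ± 0.12 in WT has a 95% interval of −0.26 to 0.22, and that in KO was 0.14 ± 0.12. The 6 Tlr7 probe sets ran from −0.30 to 0.23 in WT and from −0.30 to 0.56 in KO. In KO the brightest was at −0.30, against the sign of the gene mean. Tlr8, its neighbour on the X chromosome, rested on 1 probe set and ranged from 5.72 to 6.21 and from 5.93 to 6.54 in WT, and from 5.87 to 6.18 and from 6.04 to 6.37 in KO. Its differences were 0.13 ± 0.14 and 0.14 ± 0.14. Tlr13, which recognises bacterial ribosomal RNA, ranged from 7.75 to 8.31 and from 7.95 to 8.20 in WT, and from 8.01 to 8.12 and from 8.02 to 8.33 in KO. Its differences were −0.06 ± 0.11 and 0.12 ± 0.11. The 4 Tlr13 probe sets ran from −0.05 to 0.34 in KO, where 2 were lower, the brightest among them. For these 3 genes the 95% intervals of the pH difference in either genotype lay between −0.30 and 0.43. They are intervals of the gene means and do not cover the spread between probe sets.

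Counted together, 1 of 9 genes was called in the WT pH comparison, in the direction of a lower level. Of all genes 3.21% were called there, and 1.03% were called lower. The same gene, Tlr2, was the only 1 of 9 with an unadjusted p under 0.05 by limma in WT, against 14.4% of all genes. In KO 0 of 9 passed by limma, against 4.98% of all genes called, and 0 of 9 had an unadjusted p under 0.05, against 20.8% of all genes. In the average over genotypes 1 of 9 passed, against 8.11% of all genes called and 2.63% called lower. An unadjusted p under 0.05 by limma was reached there by 2 of 9, Tlr2 and Cd14, against 20.9% of all genes. For the difference between the responses of KO and WT 0 of 9 passed by limma, against 0.0432% of all genes, and 1 of 9, Tlr2, had an unadjusted p under 0.05, against 11.3% of all genes, a share like that of the members. The median log2 difference of the 9 genes was −0.06 in WT and 0.02 in KO, beside 0.00 and −0.02 for all genes. In 0 of the 9 genes did the arrays at pH 6.7 and pH 7.7 separate without overlap in WT or in KO, which 7.77% and 14.8% of all genes did.

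**Figure D3:**
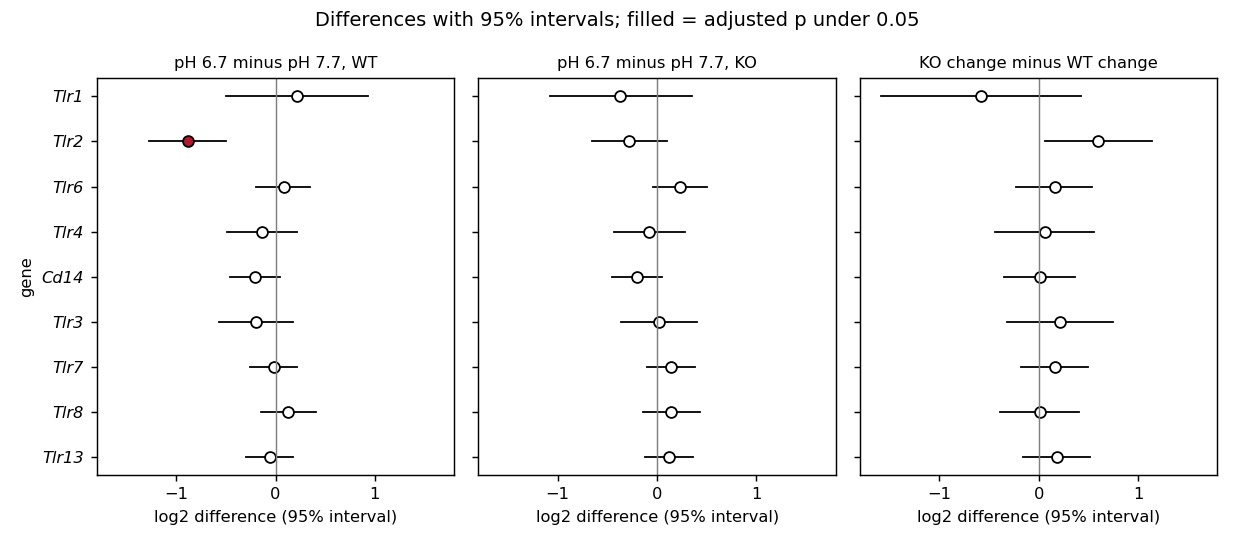
Log2 differences (x axis) of the 9 genes (y axis) between pH 6.7 and pH 7.7 in WT and in KO, and the KO difference minus the WT difference. Points are estimates from the fit over all 16 arrays, lines their 95% intervals, and the filled point has an adjusted p under 0.05, which is Tlr2 in WT at −0.88.

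Loss of Ogr1 itself went with no called difference in these genes at either pH. At pH 7.7 0 of 9 passed by limma, where 0% of all genes were called and 1574 of 20848 had an unadjusted p under 0.05. The lowest unadjusted p belonged to Tlr6, lower in KO by −0.29 ± 0.13 (unadjusted p = 0.0378, adjusted p = 0.638 by limma), and to Tlr2, at −0.40 ± 0.18 (0.0423 and 0.643). The Tlr2 value rests on the same WT arrays at pH 7.7 as its pH difference in WT, so that these are not separate observations. Computed from the brightest probe set it was 0.12, with the sign turned, and without WT pH 7.7 replicate 2 it was −0.26. That array also set the Tlr1 difference at pH 7.7, which was 0.52 ± 0.34 with it and 0.07 without it. At pH 6.7 0 of 9 passed by limma, against 0.024% of all genes called, and 0 had an unadjusted p under 0.05, against 2179 of all genes. Tlr3 (0.26 ± 0.18) and Tlr2 (0.20 ± 0.18) had the largest sizes. Averaged over both pH values 0 of 9 passed by limma, with 1, Tlr6 (−0.21 ± 0.09, adjusted p = 0.763), at an unadjusted p under 0.05, against 0% of all genes called and 1315 genes at that unadjusted p. WT and KO arrays separated without overlap in 0 of 9 genes at either pH, against 3.37% of all genes at pH 7.7 and 6.98% at pH 6.7.

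Over the 16 arrays the genes most like Tlr2 by Pearson correlation were Colec12, a scavenger receptor gene (r = 0.896), Acod1, the itaconate-producing enzyme of activated macrophages (0.889), Gdpd1 (0.867), Flrt3 (0.854) and Hapln4 (0.844). Their pH differences in WT were −0.72, −1.55, −0.63, −0.58 and −0.48 on the log2 scale, and in KO −0.32, −0.51, −0.34, −0.10 and −0.21. For Cd14 they were Smad2 (0.866), 2610528J11Rik (0.843), Gas7 (0.816), Stap1 (0.807) and Sf3b1 (0.806). The correlation of Tlr2 with the other 8 genes lay between −0.355 for Tlr1 and 0.270 for Tlr4, and that of Cd14 with Tlr1 was 0.641. Without WT pH 7.7 replicate 2, left out here after the values were seen, the correlation of Tlr2 with Tlr1 turned to 0.165, those with Tlr3 and Cd14 came to 0.559 and 0.440, and that of Cd14 with Tlr1 was 0.589. The 5 genes most like Tlr2 then had correlations of 0.757 to 0.894 with it. The arrays share groups and array quality, so these are descriptions.

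Around the receptors, 100 of 102 genes on 7 lists of the pathway could be tested. At pH 6.7 averaged over genotypes 11 rose and 5 fell, which is 16% beside 8.11% of all genes, and the median log2 difference was 0.05 beside −0.01. These shares are not alike, since most listed genes were above the array median on every array and the 8.11% counts dim genes too. The lists were also chosen with earlier results of these data known. With the brightest probe set, Jun and Sting1 alone of the 16 kept the call, and calls over all genes went from 1690 to 529. Of the 3 remaining mouse receptors none passed by limma: Tlr9, the receptor for unmethylated DNA, had −0.05 ± 0.24, and Tlr11 (0.12) and Tlr12 (0.02) were below the array median on all 16 arrays.

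Of 14 accessory proteins and chaperones, 2 rose and 12 did not pass. Hsp90b1 is an endoplasmic reticulum chaperone of several Toll-like receptors. It ranged from 8.67 to 9.15 in WT at pH 7.7 and from 9.19 to 9.35 at pH 6.7, and from 8.84 to 9.12 and 9.26 to 9.34 in KO. The groups did not overlap in either genotype, a separation seen in 7.77% of all genes in WT and 14.8% in KO. Its averaged difference was 0.33 ± 0.07 (adjusted p = 0.00713 by limma). Its co-chaperone Cnpy3 rose by 0.27 ± 0.07 (adjusted p = 0.0226). Lbp (0.39), Ly86 (0.36) and Itgam (−0.20) came next by p and did not pass. The brightest probe set alone called neither Hsp90b1 nor Cnpy3.

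Of 20 adaptors and kinases, 3 rose, 1 fell and 16 did not pass. Irak2, a kinase that joins the Myd88 complex, measured 5.04 to 5.23 at pH 7.7 and 5.49 to 5.81 at pH 6.7 in WT. In KO it measured 5.02 to 5.11 and 5.09 to 5.54, with overlap. It rose by 0.39 ± 0.08 on average (adjusted p = 0.00336 by limma), and its KO difference of 0.28 ± 0.11 did not pass (adjusted p = 0.142 by limma). The tyrosine kinase gene Syk rose by 0.40 ± 0.08 and Ikbkg, the regulatory subunit of the IkB kinase, by 0.41 ± 0.12. Tbk1, the kinase ahead of Irf3, fell by 0.23 (SE 0.06). Within the genotypes, Ikbkg passed in KO (0.65, adjusted p = 0.0368 by limma) and not in WT (0.18). Tbk1 passed in WT (−0.37, adjusted p = 0.0266 by limma) and not in KO (−0.10). For neither gene was the difference between genotypes called. Ticam1 (−0.24), Irak1 (0.16) and Chuk (0.22) did not pass. When arrays were left out in turn, Ikbkg lost its call 10 times of 16 and Tbk1 5 times, with an adjusted p of up to 0.093 and 0.0574 by limma.

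Of 14 transcription factors, 1 rose, 1 fell and 12 did not pass. Jun, a subunit of AP-1, ranged from 7.20 to 7.44 at pH 7.7 and from 6.00 to 6.88 at pH 6.7 in WT, and from 7.25 to 7.63 and 6.44 to 6.97 in KO. It fell in both genotypes, by 0.76 in WT (SE 0.16, adjusted p = 0.0157 by limma) and by 0.62 in KO (SE 0.16, adjusted p = 0.0364). Irf7 had an averaged difference of 0.88 ± 0.26 (adjusted p = 0.0428) that lost its call 12 times of 16 when arrays were left out in turn. Rel, an NF-kB subunit, rose in KO by 0.33 ± 0.09 (adjusted p = 0.0431), a call lost 9 times of 16. The KO call of Jun was lost 7 times. Irf3 (0.13), Irf8 (0.17) and Atf3 (−0.16) did not pass on average.

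Of 15 negative regulators, 2 rose, 1 fell and 12 did not pass. Tnfaip3, the deubiquitinase A20 that restrains NF-kB, rose by 0.44 ± 0.11 on average (adjusted p = 0.0143 by limma) and Inpp5d, the lipid phosphatase SHIP1, by 0.26 ± 0.06. Pik3ap1, the adaptor BCAP, fell by 0.32 (SE 0.07). Cyld (0.13), Rnf216 (0.14) and Zc3h12a (0.16) did not pass. None of the 3 that passed on average did so within a single genotype.

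Of 17 other pattern recognition receptors, 3 rose, 1 fell and 13 did not pass on average. Marco, a scavenger receptor for bacteria, ranged from 5.42 to 6.77 at pH 7.7 and from 7.36 to 8.24 at pH 6.7 in WT. Its log2 fold change was 1.59 ± 0.23 in WT (adjusted p = 0.000884 by limma) and 0.72 ± 0.23 in KO (adjusted p = 0.0836), and the difference between these did not pass (−0.87, adjusted p = 0.328). Nlrc4, an inflammasome sensor near the array median, rose by 0.51 ± 0.07 and Clec4n, the lectin Dectin-2, by 0.46 ± 0.12. Clec4n passed in KO (0.74, adjusted p = 0.023 by limma) and not in WT (0.18), and the difference between these did not pass. Sting1, the adaptor of cytosolic DNA sensing, fell by 0.71 (SE 0.12, adjusted p = 0.00118). Nlrp3 rose in KO by 0.56 ± 0.14 (adjusted p = 0.0333). Nod1 (0.41), Clec7a (0.13) and Msr1 (0.12) did not pass on average. Leaving out arrays in turn removed the averaged call of Clec4n 8 times of 16 and the KO call of Nlrp3 5 times.

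Of 17 genes that Toll-like receptor signalling induces, 1 fell and 16 did not pass. Among those that did not, Il6, Il12b, Il10, Cxcl10, Nos2 and Ifnb1 were below the array median on all 16 arrays. Il1b, Ptgs2 and Cxcl1 were above it on 1, 4 and 5 arrays. A fall could hardly be seen at such levels, so these genes do not count as measured and unchanged. Tnf ranged from 4.34 to 5.12 at pH 7.7 and from 3.17 to 4.23 at pH 6.7 in WT, without overlap. Such separation was seen in 7.77% of all genes in WT. In KO Tnf ranged from 3.96 to 4.67 and 3.98 to 4.43. It fell by 0.95 in WT (SE 0.22, adjusted p = 0.0212 by limma), had −0.09 ± 0.22 in KO, and the difference between these was 0.87 with an adjusted p of 0.296. Leaving out arrays in turn removed the WT call 4 times of 16 and the averaged one (−0.52 ± 0.15, adjusted p = 0.0433) 10 times, and the WT call was also lost with the brightest probe set, the median over probe sets, array weights and the 8 WT arrays alone. Cxcl2 (0.31), Cd40 (0.30) and Cd86 (0.49) did not pass on average. With the brightest probe set per gene, Jun and Sting1 alone kept the averaged call among the 16 genes that had it. Across the 7 lists 0 of 100 genes passed by limma in the difference between genotypes in the pH response, and 0 in the comparisons of KO with WT. Of all genes 0.0432% passed in the former and at most 0.024% in the latter, so these counts are like those of any genes.

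**Figure D4:**
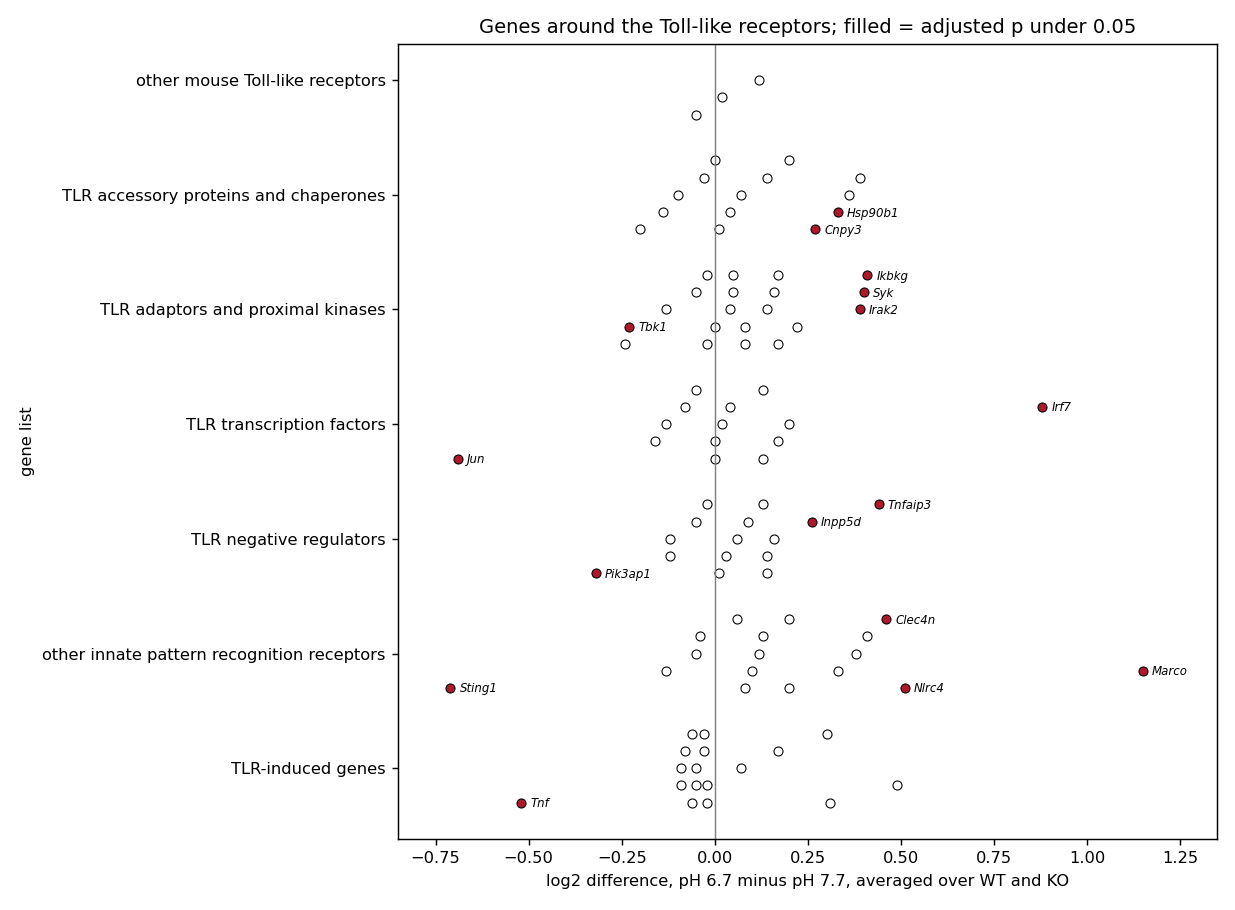
Log2 difference between pH 6.7 and pH 7.7, averaged over WT and KO (x axis), of the 100 tested genes on 7 pathway lists (y axis, points spread vertically within a list for legibility). Filled, named points have an adjusted p under 0.05: 11 lie above 0, up to Marco at 1.15, and 5 below, down to Sting1 at −0.71.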

How the data were processed

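Biotin-labelled cRNA was hybridised to Affymetrix arrays, per the labels' protocols. The deposited intensity table holds 1 value on a linear scale per probe set and array (0.88 to 5510), and per the submitters' processing notes the authors used RMA and R 2.15.2. Here log2 was taken, and the 241576 probe sets were assigned to genes through the platform annotation: 213361 carried 1 symbol, 5107 several and 23108 none listed. Symbols were updated through the RefSeq gene table (GRCm38.p6, used for names and for the span of Tlr2), and probe sets with 1 symbol were averaged per gene. All 16 columns belong to a labelled sample. A linear model of the 4 group means was fitted to all 16 arrays and all 20848 genes, dim ones included, with limma 3.58.1 under R 4.3.3, and p-values were adjusted over all genes by Benjamini-Hochberg in each of 7 comparisons, with a threshold of 0.05. The tests were 2-sided, and the fit was tested on simulated data. Precision is limited by having 4 arrays a group.

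The members and lists were chosen with earlier results of these data known. All 10 members are named, and of each pathway list the genes past the threshold and up to 3 others with the smallest p in the averaged pH comparison. On the list of induced genes, those that were mostly below the array median are named as well. For the 2 members with the smallest p there, the 5 genes with the highest correlation are named. Alternatives were the brightest probe set, the median over probe sets, leaving out dim probe sets or dim genes, centring, quantile normalization, an offset of 8 before log2, an intensity trend with robust variances, array weights, a replicate block, the 8 arrays compared alone, and leaving out each array. No batch was tested, since none is labelled.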

Additional observations from a re-analysis of the deposited data

Results flagged for a closer look

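In 1 of 36 combinations of gene and group, 1 array lay far from the other 3. Tlr4 measured 5.08 on the log2 scale in KO pH 7.7 replicate 1, while the other 3 arrays of that group lay between 5.73 and 5.85. The gap was 0.850 of the range of the group, above the 95% critical value of Dixon's test for 4 samples. Chance sets apart about 1 in 20 groups by this rule.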

How the results depend on the processing

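The members' calls were recomputed under 27 alternatives, of which the fit of only 8 arrays was not run for the interaction and the 2 averages, which need all 16. The count of called members in the WT pH comparison went from 1 to 0 with the brightest probe set, with the median over probe sets and with the 8 WT arrays alone, and in the averaged pH comparison from 1 to 0 with the first 2 of these. Leaving out 1 array gave 1 in WT in all 16 fits and 1 to 2 in the average. The other 5 comparisons had 0 under each alternative that was run for them. Tlr2 in WT had an adjusted p by limma of 0.00145 to 0.0443 when 1 array was left out, and log2 fold changes between −1.08 and −0.74. The interaction of Tlr2, 0.60, was −0.05 with the brightest probe set. Of 1674 recomputed member values 96 changed sign, 0 of them called, and 85 of these 96 started below 0.1 in size. The replicate block gave the members' calls of the fit without it (1 in WT, 1 in the average), and same-numbered arrays correlated between −0.21 and 0.17 in their deviations, over 0.1 in 2 of 24 pairs, so the number was not taken as a pairing. It moved the interaction calls from 9 to 1 gene and those of KO against WT at pH 7.7 from 0 to 1. Over all genes, the WT pH calls went from 669 to 175 with the brightest probe set and to 946 with the offset, those in KO from 1038 to 415 with the median over probe sets and 1531 with array weights, and the averaged ones from 1690 to 529 with the brightest probe set. Leaving out 1 array gave 379 to 624 calls in WT, with 379 and 408 without WT pH 6.7 replicates 3 and 1, and 451 to 1282 in KO, with 451 to 635 without any 1 KO array other than pH 7.7 replicate 4. The interaction went from 9 to 83 and KO against WT at pH 6.7 from 5 to 67 with the brightest probe set, and the averaged genotype comparison from 0 to 5 without dim probe sets. The cause of these changes was not tested.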
